A study of Mus musculus with 3 samples.

Results

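The genes described here are 42 non-collagen genes of the extracellular matrix, of 22378 genes listed for each library. They were chosen by gene name. They comprise 17 adhesive and matricellular glycoproteins, 8 proteoglycans and link proteins, 12 elastic fibre and microfibril proteins and 5 lysyl oxidases. Each name matched 1 gene model, and every one of these models had the status OK in all 3 libraries.

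The study sequenced RNA of 3 pooled libraries from mice on the FVB background, 1 library for each of its 3 groups. LCC (lung-colonizing cells) were mammary cells that had been given intravenously and were sorted from dissociated recipient lungs 1 day later. They were recognised as cells of GFP mice, which carry green fluorescent protein, or as FVB cells stained with the dye DDAO, and this library pooled 15 experiments, 42 lungs and 455880 cells. The design text describes an experiment as cells from the glands of 8 FVB.GFP females, given to 4 FVB recipients in 2 doses of 2500000 cells. The dye-stained FVB cells and the number of lungs pooled show that not every experiment followed this scheme. E-Int29-Hi was a flow-sorted fraction of dissociated mammary cells with intermediate EpCAM (an epithelial adhesion molecule) and high CD29 (integrin beta 1) on the surface. It combined 3 samples and is labelled as richer in colonizing cells, and it is called the gated fraction below, since LCC were sorted by their label with no EpCAM or CD29 gate named. MG, called the gland below, was intact mammary tissue labelled as not dissociated, also 3 samples combined, although another label of it names RNA of all breast cells. The labels give no age for the mice. The design text names the LCC profile, and the genes that distinguish the 3 groups, as its question.

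The extracellular matrix is the secreted protein network around cells. Its adhesive glycoproteins bind integrins, its small leucine-rich proteoglycans coat collagen fibrils, and its elastic fibres form when elastin is laid down on fibrillin microfibrils with the help of fibulins and cross-linked by lysyl oxidases. In the mammary gland stromal fibroblasts make most interstitial matrix, and myoepithelial cells, the contractile basal layer of the ducts, contribute as well.

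Levels are in FPKM, the number of sequenced fragments scaled to the length of the gene and to the size of the library, which can be compared between genes because they are per length. Differences are log2((FPKM + 1)/(FPKM + 1)), a scale that understates the difference of low genes, and a gene is called higher or lower at 2 or more in size on it, which is 4-fold. With 1 library per group no difference has a replicate check, no test was run, and every value describes these pools. The 3 comparisons share libraries, so their counts are not independent of each other. In bulk RNA, fewer cells of a type and less RNA per cell cannot be told apart. Library depth was not given. Among genes between 0.01 and 0.1 FPKM in both libraries the commonest ratio was 1.11 for LCC over E-Int29-Hi, at 11 of 299 genes, 1.17 for LCC over MG, at 17 of 250 genes, and 1.05 for E-Int29-Hi over MG, at 100 of 883 genes. The relative depth of the libraries was not set from these shares.

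Markers of several cell types differed between the libraries in ways that touch matrix genes. The 13 fibroblast markers, none of them among the 42 genes, summed to 1622 FPKM in LCC, 156.7 in the gated fraction and 2762 in the gland. Of them 12, 10 and 13 stood at 1 FPKM or more, and none was listed at 0. Most of each sum came from Col1a1, Col1a2, Col3a1, Col6a1 and Col6a2, collagen genes that are matrix genes themselves. Among the 13 markers Col6a1, Col6a2 and Twist2 were higher in LCC than in the gland, and all the others were lower. The 9 basal and myoepithelial markers summed to 658.6 FPKM in LCC, 7461 in the gated fraction and 474.8 in the gland. Of these Krt5, Krt14 and Krt17 were higher in LCC than in the gland, and all the others were lower. The 9 leukocyte and macrophage markers summed to 536.4, 116.7 and 215.0 FPKM, and the 6 lung epithelium markers to 620.2, 2.26 and 1.77 FPKM, of which Scgb1a1 of airway club cells held 572 in LCC. The 6 endothelial markers summed to 85.05, 88.8 and 485.3 FPKM and the 6 pericyte markers to 73.6, 23.6 and 116.2 FPKM. Of 8 lung mesenchyme markers 6 had values, which summed to 18.4, 4.61 and 12.1 FPKM, and Inmt held 11.9 of the LCC sum. Tbx4, a mesenchymal transcription factor of the lung, stood at 0.866 FPKM in LCC, 0.00686 in the gated fraction and 0.112 in the gland. Wnt2, Tcf21, Tbx5 and Fgfr4 of the same list were lower in LCC than in the gland. The 4 that reached 1 FPKM in LCC or the gland had a median log2 difference of -0.27 there, with 0 of them 4-fold apart. The 9 luminal epithelial markers summed to 4130, 287.3 and 2126 FPKM, and the 5 platelet markers to 9.55, 11.1 and 9.69 FPKM. Among the luminal markers Krt8, Krt18 and Krt7 were higher in LCC than in the gland, and all the others were lower. The 5 adipocyte markers summed to 0.532, 1.81 and 22.9 FPKM, with Plin1 and Lep (leptin) listed at 0 in LCC. In the library labelled intact gland Car3 (carbonic anhydrase 3) held most of that sum at 18.9 FPKM, while Cidec stood at 1.68, Adipoq (adiponectin) at 1.12, Lep at 0.614 and Plin1 at 0.575. The part of any of these cell types in the differences below was not tested.

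**Figure D1:**
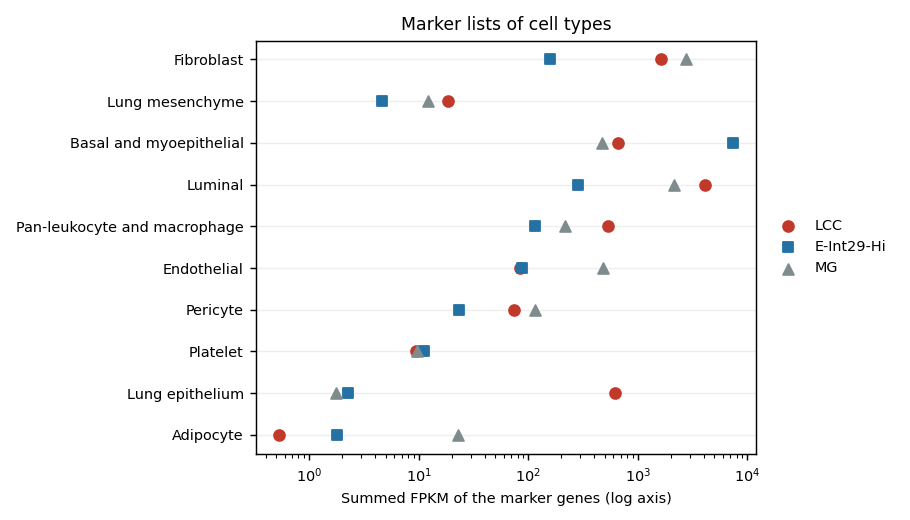
Summed FPKM of the marker genes of each cell type (horizontal, log axis) in LCC (circles), E-Int29-Hi (squares) and MG (triangles), with 1 library per group and no error bars. The fibroblast sum is 156.7 in E-Int29-Hi against 1622 in LCC and 2762 in MG, and the basal sum is highest in E-Int29-Hi at 7461.

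Matrix genes were abundant in each library, and the libraries differed in which of them led. The 42 genes summed to 4324 FPKM in LCC, 3973 in the gated fraction and 4485 in the gland, which was 1.15%, 1.22% and 1.56% of all FPKM. The median gene stood at 30.2 FPKM in LCC, 6.94 in the gated fraction and 36.4 in the gland. In E-Int29-Hi the sum was concentrated, with Thbs1, Sparc and Postn holding 70.9% of it, whereas the 3 highest genes held 39.0% in LCC (Bgn, Thbs1 and Sparc) and 38.8% in MG (Sparc, Dcn and Thbs1). Of the 42 genes 16 were highest in LCC, 8 in the gated fraction and 18 in the gland, and 25 were lowest in the gated fraction.

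**Figure D2:**
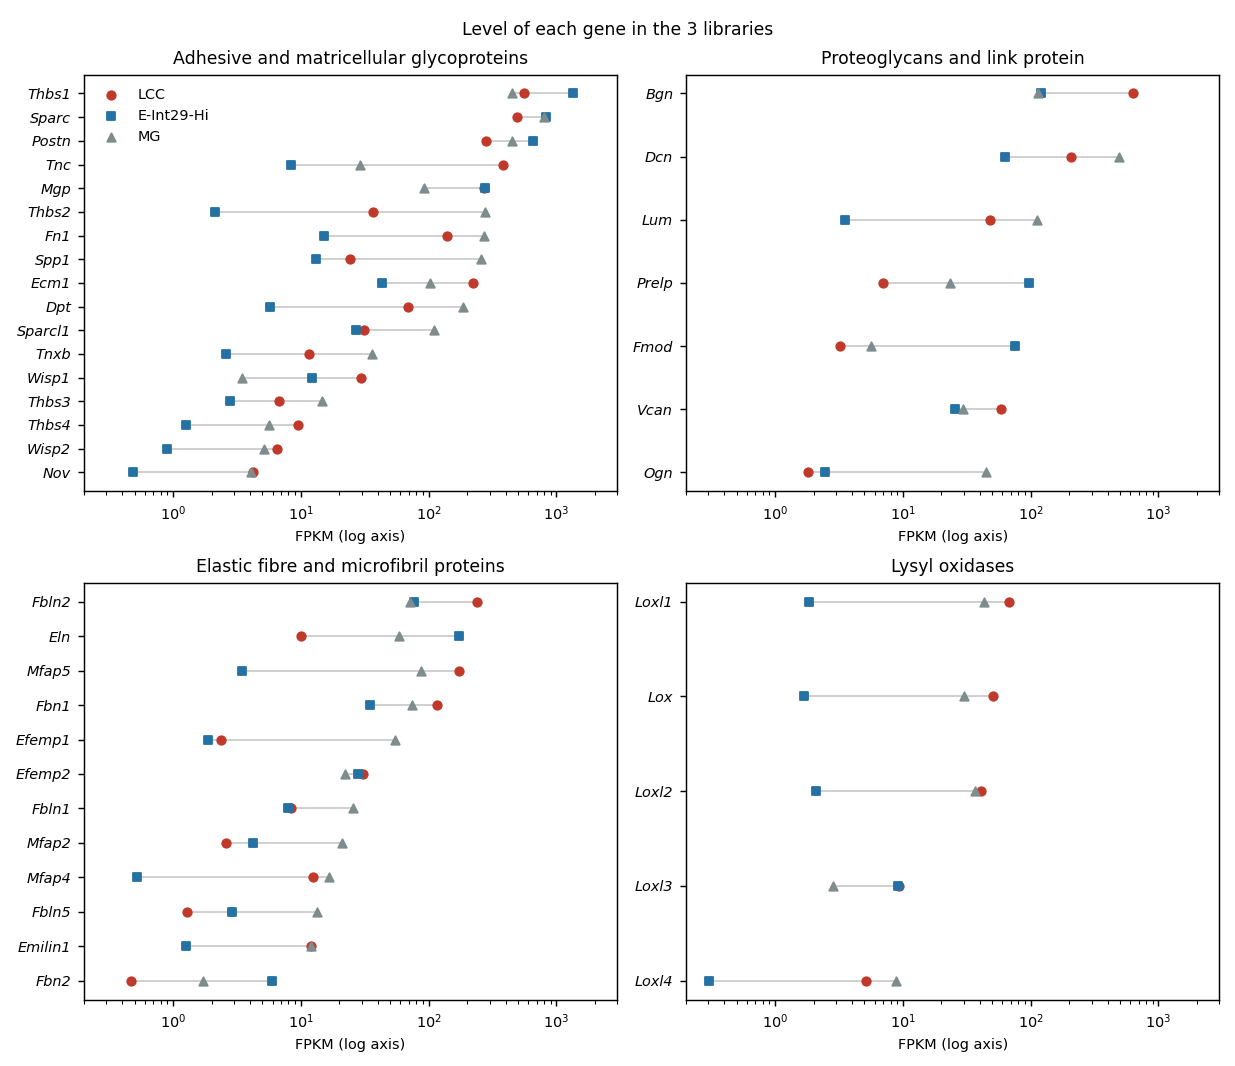
FPKM of each gene (horizontal, log axis) in LCC (circles), E-Int29-Hi (squares) and MG (triangles), in 4 panels by role and ordered by the highest level. Each point is 1 library, and Hapln1, under 0.1 FPKM in every library, is not drawn. The squares lie leftmost for most genes but rightmost for Thbs1, Sparc, Postn, Mgp, Fmod, Prelp, Eln and Fbn2.

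The first comparison asked how matrix genes of LCC differ from those of the gated fraction, which is labelled as containing the colonizing subset. Of the 42 genes 41 reached 1 FPKM in one library or both, and 15 of them were higher in LCC (36.6%, against 4.64% of all 12147 genes) and 4 lower (9.76%, against 4.35%). The 15 were Tnc, Fn1, Thbs2, Thbs4, Ecm1, Dpt, Lum, Bgn, Mfap4, Mfap5, Emilin1, Lox, Loxl1, Loxl2 and Loxl4, and the 4 were Fmod, Prelp, Eln and Fbn2. The median difference of the 41 genes was 1.64, and that of all genes 0.26. The fibroblast markers, which include collagen genes, had a median difference of 2.73, with 8 of 12 higher in LCC. The basal markers were all lower in LCC, 9 of 9, with a median difference of -4.36. Higher in LCC were 4 of 9 luminal markers (median 1.77), 3 of 9 leukocyte and macrophage markers (median 1.68) and 4 of 6 lung epithelium markers (median 2.34). Elf5, Esr1 and Pgr of the luminal list and Mrc1 of the leukocyte list stood lower in LCC than in the gated fraction. Of the 41 genes 5 reached 1 FPKM in only 1 of the 2 libraries, namely Nov, Wisp2, Mfap4 and Loxl4 in LCC and Fbn2 in the gated fraction. At 2-fold 24 genes were higher in LCC (against 21.2% of all genes) and 6 lower (against 14.1%), and at 8-fold 10 were higher (against 1.61%) and 3 lower (against 1.53%). A pseudocount of 5 in place of 1 ended the calls of Thbs4 (1.22), Mfap4 (1.66), Emilin1 (1.44), Loxl4 (0.93) and Fbn2 (-1.0).

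Against the gland, fewer matrix genes of LCC stood apart. Again 41 genes passed the filter, of which 3 were higher in LCC (7.32%, against 1.33% of all 12443 genes), namely Tnc, Wisp1 and Bgn. Lower in LCC were 7 (17.1%, against 2.63%), namely Thbs2, Spp1, Ogn, Eln, Fbln5, Efemp1 and Mfap2. The median difference was -0.65 for the 41 genes and 0.01 for all genes. Beside them the fibroblast markers had a median difference of -0.88, with 0 of 13 higher and 2 lower, and the endothelial markers one of -2.41, with 4 of 6 lower. The luminal markers had a median of -1.13, with 3 of 9 lower, and the leukocyte and macrophage markers one of 1.27, with 2 of 9 higher. The lung epithelium markers had a median of 2.32, with 4 of 6 higher. For the basal markers it was -1.05, with 0 of 9 higher and 2 lower. At 2-fold 7 genes were higher in LCC (against 10.9% of all genes) and 15 lower (against 12.8%), and at 8-fold 1 was higher (against 0.281%) and 3 lower (against 0.683%). A pseudocount of 5 ended the calls of Fbln5 (-1.54) and Mfap2 (-1.78).

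The third comparison, of the gated fraction with the gland, had the most matrix genes apart in 1 direction. Of 41 genes 2 were higher in the gated fraction, Fmod and Prelp (4.88%, against 2.6% of all 12430 genes), and 18 were lower (43.9%, against 3.97%). The 18 were Fn1, Tnxb, Thbs2, Thbs3, Spp1, Dpt, Dcn, Lum, Ogn, Efemp1, Mfap2, Mfap4, Mfap5, Emilin1, Lox, Loxl1, Loxl2 and Loxl4. Of the 41 genes Nov, Wisp2, Mfap4 and Loxl4 reached 1 FPKM only in the gland, so the last 2 are among the lower genes through the library in which they are high. The median difference was -1.77 for the 41 genes and -0.23 for all genes. The fibroblast markers, 11 of 13 lower, had a median of -2.92, the luminal markers, 7 of 9 lower, one of -2.90, and the endothelial markers, 4 of 6 lower, one of -2.06. The basal markers, 7 of 9 higher in the gated fraction, had a median of 3.25. At 2-fold 8 genes were higher in the gated fraction (against 8.99% of all genes) and 27 lower (against 15.5%), and at 8-fold 1 was higher (against 0.676%) and 13 lower (against 1.2%). A pseudocount of 5 ended the calls of Prelp (1.86), Thbs3 (-1.33), Mfap2 (-1.49), Mfap4 (-1.97), Emilin1 (-1.44) and Loxl4 (-1.38), TPM (the values rescaled to 1 sum per library) that of Prelp (1.88), and median ratio scaling those of Thbs3 (-1.77) and Mfap2 (-1.77).

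**Figure D3:**
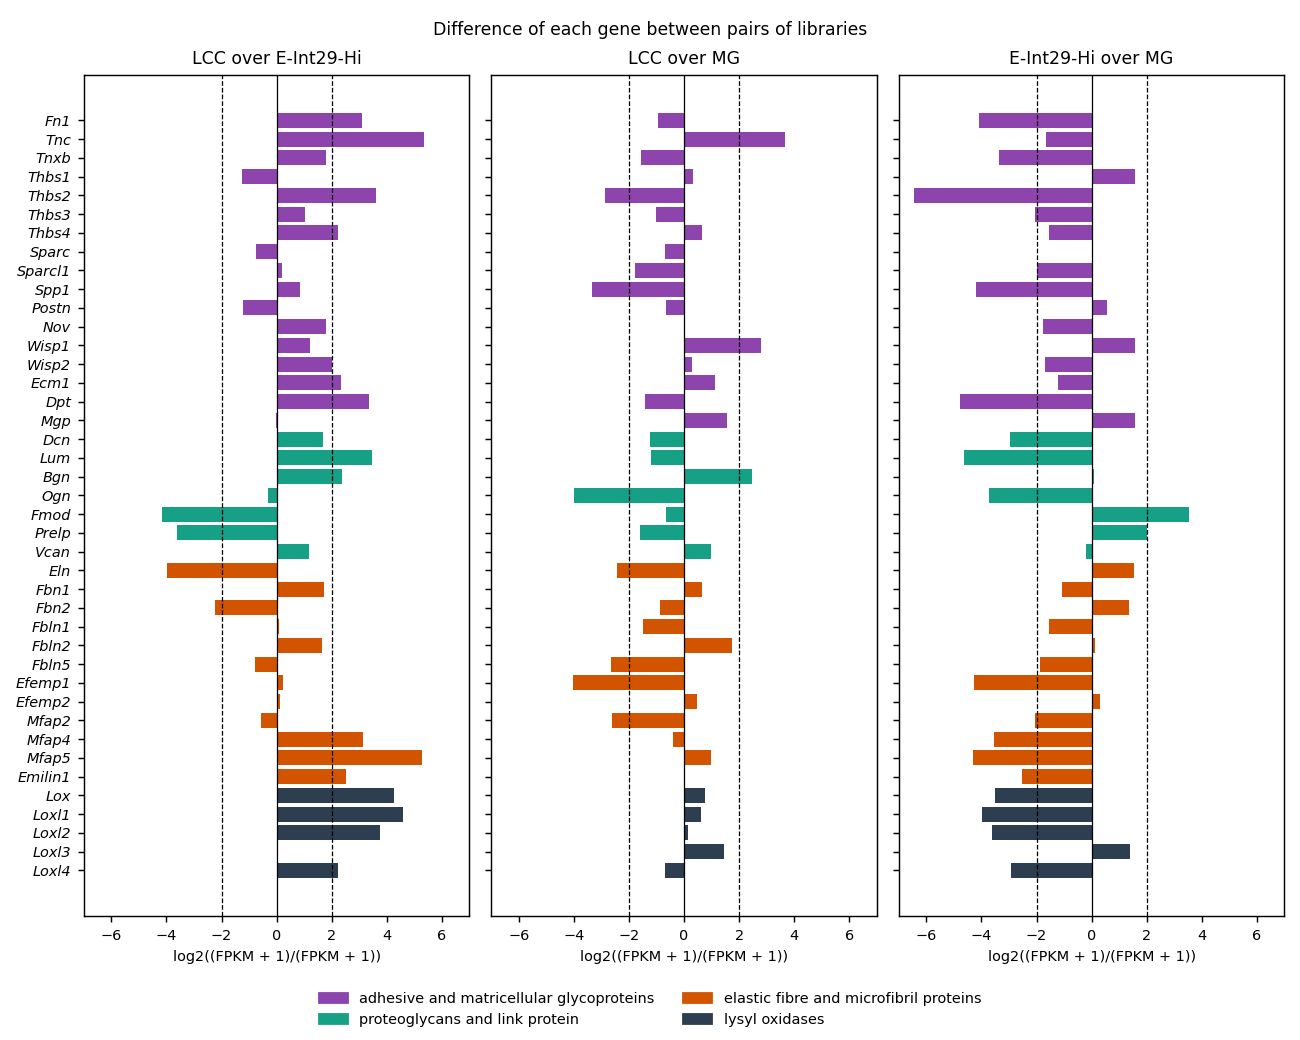
Difference of each gene on the log2((FPKM + 1)/(FPKM + 1)) scale (horizontal) for LCC over E-Int29-Hi, LCC over MG and E-Int29-Hi over MG, coloured by role, with dashed lines at 2 and -2. Each bar compares 1 library with 1 other, and Hapln1 is not drawn. All lysyl oxidases but Loxl3 reach past 2 in the left panel and past -2 in the right one, and none in the middle panel.

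Set against both other libraries at once, 11 of 41 genes were at least 4-fold lower in the gated fraction, as were 1.45% of all 12772 genes. They were Fn1, Thbs2, Dpt, Lum, Mfap4, Mfap5, Emilin1, Lox, Loxl1, Loxl2 and Loxl4. Mfap4 and Loxl4 were under 1 FPKM in the gated fraction and passed the filter only through the libraries in which they are high. A pseudocount of 5 ended the calls of Mfap4, Emilin1 and Loxl4 against both others. MG stood above both others for 5 genes (Thbs2, Spp1, Ogn, Efemp1 and Mfap2, against 1.16% of all genes) and below both for 0 (against 0.0626%). LCC stood above both others for Tnc and Bgn (2 genes, against 0.987%) and below both for Eln (1 gene, against 0.587%). E-Int29-Hi stood above both others for Fmod and Prelp (2 genes, against 1.99%). With a pseudocount of 5 Mfap2 lost its calls in MG against both others, and Prelp its call against MG.

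The bases before the start of Tnc and Bgn, which set LCC apart, and of Fmod and Prelp, which set E-Int29-Hi apart, are shown from RefSeq on build GRCm38.p6. Each run is the 250 bases before the gene start, 5′ to 3′ on the gene's strand, with capitals at motif matches. Tnc lies at chr4:64047016-64047265 on the minus strand (the first of 2 starts listed), Bgn at chrX:73483351-73483600 on the plus strand, Fmod at chr1:134037004-134037253 on the plus strand and Prelp at chr1:133921402-133921651 on the minus strand.
Tnc: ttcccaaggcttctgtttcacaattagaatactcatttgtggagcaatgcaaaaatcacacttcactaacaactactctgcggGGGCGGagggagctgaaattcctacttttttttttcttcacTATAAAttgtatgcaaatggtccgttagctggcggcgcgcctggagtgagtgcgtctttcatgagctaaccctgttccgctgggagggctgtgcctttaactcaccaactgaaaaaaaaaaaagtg
Bgn: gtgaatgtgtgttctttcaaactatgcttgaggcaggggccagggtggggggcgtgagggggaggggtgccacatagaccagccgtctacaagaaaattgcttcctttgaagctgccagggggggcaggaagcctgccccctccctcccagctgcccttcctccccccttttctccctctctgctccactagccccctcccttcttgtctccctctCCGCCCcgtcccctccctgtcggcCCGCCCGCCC
Fmod: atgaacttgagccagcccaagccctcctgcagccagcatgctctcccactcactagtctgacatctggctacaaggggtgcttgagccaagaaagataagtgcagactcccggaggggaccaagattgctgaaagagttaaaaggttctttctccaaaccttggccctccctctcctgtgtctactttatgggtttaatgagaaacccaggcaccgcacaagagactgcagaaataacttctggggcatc
Prelp: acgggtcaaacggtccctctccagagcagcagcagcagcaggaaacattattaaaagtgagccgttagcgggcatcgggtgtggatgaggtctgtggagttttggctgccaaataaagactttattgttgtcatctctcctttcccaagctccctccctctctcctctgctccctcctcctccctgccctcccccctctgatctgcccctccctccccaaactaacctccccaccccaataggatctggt
The motifs searched on both strands were the TATA box TATAAA, the GC box GGGCGG, the AP-1 site TGANTCA and the TEAD site GGAATG. Tnc held a TATA box at bases 126 to 121 before its start and a GC box at bases 167 to 162. Bgn held GC boxes on the other strand at bases 34 to 29, 10 to 5 and 6 to 1, of which the last 2 overlap. Fmod and Prelp held none of the 4 in these windows. Of the 42 genes 25 had a sequence in the table, and of these 14 held a GC box (56%, against 35.4% of 27025 genes), 6 a TATA box (24%, against 14.3%), 3 an AP-1 site (12%, against 7.82%) and 3 a TEAD site (12%, against 14.4%). The matches are a description of letters and show no binding.

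Among the adhesive glycoproteins, tenascin C and fibronectin separated the libraries in different ways. Tnc, which encodes an anti-adhesive glycoprotein of wounds and tumour stroma, stood at 379.8 FPKM in LCC, 8.39 in the gated fraction and 28.8 in the gland. LCC was thus 45.3 times E-Int29-Hi and 13.2 times MG, and its differences on the log2 scale were 5.34 and 3.67. Against MG no other of these genes stood as far above in LCC, while against E-Int29-Hi Mfap5 had a larger FPKM ratio (49.3) and a smaller difference (5.27). Fn1, fibronectin, the main integrin-binding glycoprotein of interstitial matrix, stood at 138 FPKM in LCC, 15.2 in the gated fraction and 271 in the gland, low only in the gated fraction. Tnxb, tenascin X, a collagen-associated glycoprotein, followed the order of Fn1 at 11.6, 2.60 and 35.9 FPKM.

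The 4 thrombospondins, which are calcium-binding glycoproteins, did not share an order. Thbs1, an activator of latent TGF-beta, stood at 562 FPKM in LCC, 1338 in the gated fraction and 449 in the gland, the most abundant of the 42 genes in the gated fraction. The widest difference of any member belonged to Thbs2, at 36.9, 2.14 and 276 FPKM, with log2 differences of -6.46 for the gated fraction against the gland and -2.87 for LCC against the gland. Thbs3 stood at 6.71, 2.77 and 14.6 FPKM and Thbs4 at 9.515, 1.25 and 5.65 FPKM. Thbs1 led the family in every library. Thbs2 came next in LCC and in MG, and Thbs3 in E-Int29-Hi.

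Several matricellular proteins, which modulate cells rather than build fibres, were high in all 3 libraries. Sparc, a collagen-binding protein of basement membrane and stroma, stood at 495 FPKM in LCC, 827 in the gated fraction and 796 in the gland. Postn, periostin, stood at 282, 652 and 446 FPKM. Neither differed by 4-fold between any libraries, and in both LCC was lowest. Sparcl1, the relative of Sparc, stood at 31.2, 27.2 and 111 FPKM. Spp1, osteopontin, a secreted integrin ligand that macrophages and epithelium also make, stood at 24.4 FPKM in LCC, 13.1 in the gated fraction and 256 in the gland. Its level in the gland was thus far above that in both other libraries.

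The CCN family of cysteine-rich signalling modulators had a common order for only some members. Wisp1 stood at 29.8 FPKM in LCC, 12.3 in the gated fraction and 3.47 in the gland, a difference of 2.78 between LCC and MG, with both sorted libraries above the gland. Wisp2 stood at 6.55, 0.888 and 5.13 FPKM and Nov at 4.22, 0.489 and 4.07 FPKM, low in the gated fraction alone. The difference of Wisp2 between LCC and E-Int29-Hi, 1.999, fell just short of a call.

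Ecm1, a secreted glycoprotein that interacts with basement membrane and proteoglycans, stood at 224 FPKM in LCC, 43.0 in the gated fraction and 103 in the gland. Mgp, the matrix Gla protein that inhibits calcification, stood at 273, 278 and 92.5 FPKM, nearly equal in LCC and E-Int29-Hi. Dpt, dermatopontin, which binds decorin and assists collagen fibril assembly, stood at 68.8, 5.77 and 187 FPKM, in the order of Fn1. Of the 17 adhesive and matricellular genes 6 were higher and 0 lower in LCC than in the gated fraction (35.3% and 0%, against 4.64% and 4.35% of all genes). In LCC against the gland 2 were higher and 2 lower (11.8% each, against 1.33% and 2.63%), and in the gated fraction against the gland 0 were higher and 6 lower (0% and 35.3%, against 2.6% and 3.97%).

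Proteoglycans split into genes highest in the gland, in LCC and in the gated fraction. Bgn, biglycan, a small leucine-rich proteoglycan that binds collagen and innate immune receptors, stood at 632 FPKM in LCC, 121 in the gated fraction and 114 in the gland, and was the highest of the 42 genes in LCC. Its close relative Dcn, decorin, had another order, at 206, 62.7 and 493 FPKM. Lum, lumican, a regulator of collagen fibril width, stood at 48.4, 3.50 and 111.5 FPKM. In LCC biglycan therefore exceeded decorin, and in MG decorin exceeded biglycan.

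Fibromodulin and PRELP were the exception in the gated fraction. Fmod, which binds collagen fibrils, stood at 3.23 FPKM in LCC, 74.8 in the gated fraction and 5.62 in the gland, a difference of -4.16 for LCC against E-Int29-Hi and 3.52 for E-Int29-Hi against MG. Prelp, a leucine-rich protein that links basement membrane to connective tissue, stood at 6.97, 97.0 and 23.2 FPKM, with differences of -3.62 and 2.02. The basal marker sum was also highest in E-Int29-Hi. It was higher in LCC than in MG (658.6 against 474.8 FPKM), whereas Fmod and Prelp were lower in LCC than in MG. A part of basal cells in the levels of these 2 genes was not tested. Ogn, osteoglycin, stood at 1.82, 2.46 and 44.5 FPKM, present mainly in the gland library, with a difference of -4.01 for LCC against MG. Vcan, versican, a large hyaluronan-binding proteoglycan, stood at 59.1, 25.6 and 29.7 FPKM, within 4-fold throughout. Hapln1, the link protein that ties such proteoglycans to hyaluronan, was listed at 0 in LCC and stood at 0.0157 FPKM in the gated fraction and 0.0599 in the gland, so it was not detected at a level that can be compared.

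Of the small leucine-rich proteoglycans among the 42 genes, Bgn lies on chromosome X with no other matrix gene beside it. The others of the 42 lie in 3 clusters in the RefSeq gene order, together with genes outside the 42. Within each cluster these genes had their highest level in the same library, some of them at low levels. Podn, Podnl1, Chad and Nyx, of the list of other matrix genes, are not in these clusters. On chromosome 1 Optc, Prelp and Fmod follow each other, and all 3 were highest in E-Int29-Hi, with Optc (opticin, not among the 42 genes) at 0.135 FPKM in LCC, 1.78 in the gated fraction and 0.249 in the gland. The next gene after Fmod, Btg2, which is no proteoglycan, was also highest there, at 35.1, 126 and 44.6 FPKM. On chromosome 13 Ecm2, Aspn, Omd and Ogn follow each other, and all 4 were highest in MG, with Aspn (asporin) at 5.51, 1.06 and 17.6 FPKM and Ecm2 at 0.499, 1.303 and 6.91 FPKM. On chromosome 10 Dcn, Lum, Kera and Epyc follow each other, and all 4 were highest in MG, although Kera and Epyc stayed under 1 FPKM in every library. Hapln1 and Vcan are also neighbours, and one was near 0 where the other was expressed. Gene order was looked up for every member, and these clusters were singled out after the values were seen.

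**Figure D4:**
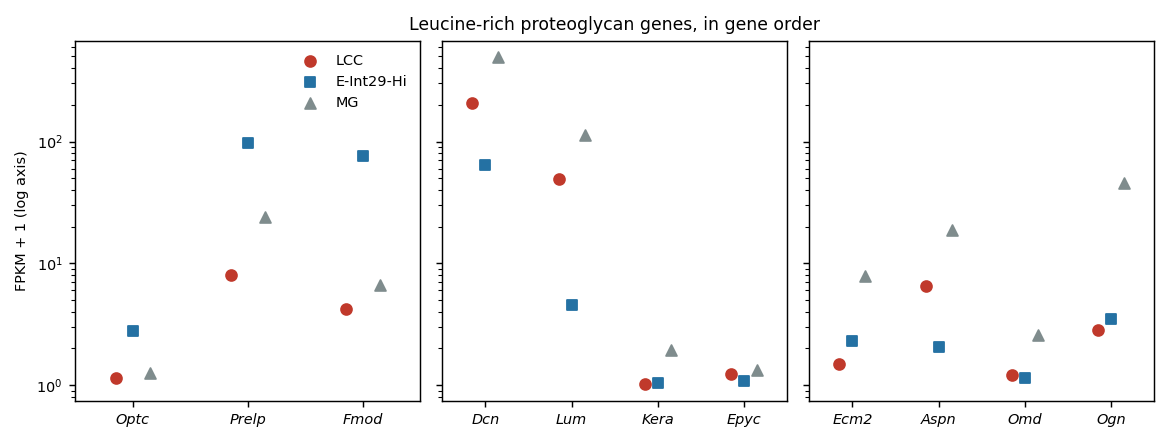
FPKM + 1 (vertical, log axis) of leucine-rich proteoglycan genes in 3 gene clusters, in chromosomal order from left to right, in LCC (circles), E-Int29-Hi (squares) and MG (triangles), 1 library each. The squares lie on top in the left cluster (Prelp 97.0 FPKM, Fmod 74.8 FPKM) and the triangles in the other two.

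Elastin and its fibrillar partners were not high in the same library. Eln, which encodes the elastic core protein, stood at 10.1 FPKM in LCC, 174 in the gated fraction and 59.0 in the gland, with differences of -3.98 for LCC against the gated fraction and -2.44 for LCC against the gland. Fbn1, fibrillin 1, the scaffold of microfibrils, had the opposite order between LCC and E-Int29-Hi, at 117, 35.0 and 74.6 FPKM. Fbn2, the fibrillin known from development, followed Eln at low levels, at 0.465, 5.93 and 1.72 FPKM.

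The fibulins and related glycoproteins guide elastin onto microfibrils. Fbln2 stood at 240.2 FPKM in LCC, 76.3 in the gated fraction and 70.9 in the gland, highest in LCC by less than 4-fold. Fbln5, needed for elastic fibre assembly, stood at 1.29, 2.90 and 13.3 FPKM, and Fbln1 at 8.38, 7.94 and 25.4 FPKM, both highest in the gland. Efemp1 (fibulin 3) stood at 2.36, 1.86 and 54.7 FPKM, a difference of -4.05 for LCC against MG and -4.28 for E-Int29-Hi against MG. Efemp2 (fibulin 4), which brings lysyl oxidase to elastin, varied little, at 30.7, 27.8 and 22.1 FPKM.

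Among the microfibril-associated proteins, which decorate fibrillin, Mfap5 stood at 172 FPKM in LCC, 3.49 in the gated fraction and 86.95 in the gland, 49.3 times higher in LCC than in E-Int29-Hi. Mfap4 stood at 12.4, 0.518 and 16.6 FPKM and Emilin1, an elastin-microfibril interface protein, at 11.9, 1.26 and 11.9 FPKM. These 3 were alike in LCC and MG, within 4-fold, and low in the gated fraction. Mfap2 differed from them, at 2.59, 4.25 and 21.0 FPKM, high in the gland library alone. Of the 12 elastic fibre genes 3 were higher and 2 lower in LCC than in E-Int29-Hi (25% and 16.7%, against 4.64% and 4.35% of all genes). In LCC 0 were higher and 4 lower than in the gland (0% and 33.3%, against 1.33% and 2.63%), and in the gated fraction 0 were higher and 5 lower than in the gland (0% and 41.7%, against 2.6% and 3.97%).

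The lysyl oxidases, copper enzymes that cross-link collagen and elastin, shared 1 pattern except for Loxl3. Lox stood at 50.5 FPKM in LCC, 1.70 in the gated fraction and 29.8 in the gland. Loxl1, the paralog tied to elastic fibres, stood at 67.4, 1.85 and 43.5 FPKM, and Loxl2, which acts on basement membrane collagen, at 40.7, 2.09 and 36.9 FPKM. Loxl4 followed at a lower level, at 5.13, 0.304 and 8.82 FPKM. Against both other libraries these 4 were lower in the gated fraction, with differences against LCC of 4.26, 4.59, 3.75 and 2.23. They are 80% of the 5 genes, against 4.64% of all genes higher in LCC than in the gated fraction. Against the gland 3.97% of all genes were lower in the gated fraction. Loxl4 was under 1 FPKM in the gated fraction. With a pseudocount of 5 both of its calls ended, at 0.93 (LCC over E-Int29-Hi) and -1.38 (E-Int29-Hi over MG). None of the 4 was apart between LCC and MG. Loxl3 stood at 9.34, 9.14 and 2.82 FPKM, close in LCC and the gated fraction. The family summed to 173.0 FPKM in LCC, 15.1 in the gated fraction and 121.9 in the gland, or 4.0%, 0.38% and 2.72% of the matrix genes' sum, while Eln, a substrate, was highest in E-Int29-Hi.

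**Figure D5:**
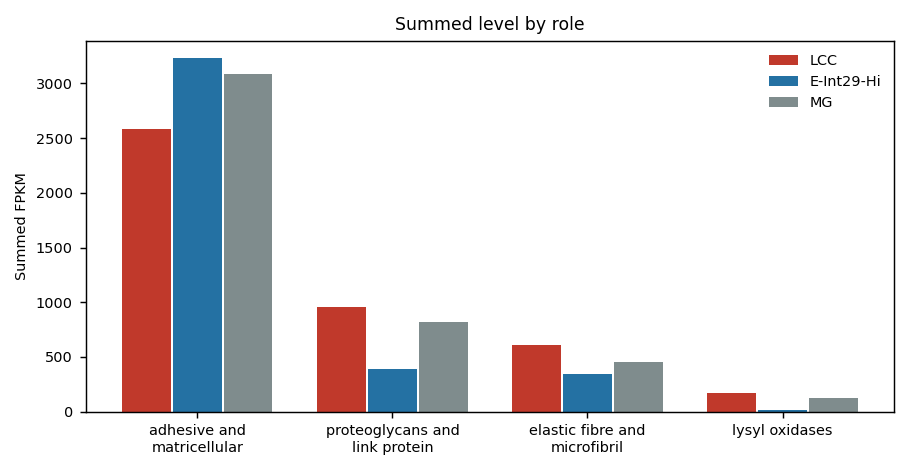
Summed FPKM of the genes of each role (vertical, from 0), 1 bar for each of the libraries LCC, E-Int29-Hi and MG, and no error bars. Adhesive and matricellular genes hold 3229 of 3973 FPKM in E-Int29-Hi, and the lysyl oxidases hold 15.1 FPKM there.

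A list of 65 other matrix glycoprotein, proteoglycan and elastic fibre pathway genes, which excludes the 42, held genes of both directions in each comparison. Of 43 that reached 1 FPKM in LCC or the gated fraction, 7 were higher in LCC (16.3%, against 4.64% of all genes). Lower in LCC were 6 (14%, against 4.35%), and the median difference was 0.31, against 0.26 for all genes. Against MG 1 of 42 was higher in LCC (2.38%, against 1.33%) and 3 lower (7.14%, against 2.63%). The median was -0.65, against 0.01 for all genes. In E-Int29-Hi against MG 5 of 43 were higher (11.6%, against 2.6%) and 12 lower (27.9%, against 3.97%). The median was -1.26, against -0.23 for all genes. Ctgf, a CCN family relative of Wisp1 and Nov, stood at 49.0 FPKM in LCC, 1234 in the gated fraction and 122 in the gland. Its expression was thus highest in the gated fraction, as was that of Spock2 (1.16, 42.6 and 4.07 FPKM), Matn4 (0.626, 32.5 and 4.39 FPKM), Agrn (32.5, 136 and 31.3 FPKM), Ltbp2 (93.5, 174 and 14.0 FPKM) and Ltbp3 (15.8, 99.4 and 36.8 FPKM), the last pair being latent TGF-beta binding proteins on microfibrils.

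Other genes of that list followed Fn1 and the lysyl oxidases in being lowest in E-Int29-Hi. Prg4, lubricin, stood at 23.3 FPKM in LCC, 0.308 in the gated fraction and 21.3 in the gland, and Emilin2 at 31.4, 1.78 and 33.0 FPKM. Pcolce, the enhancer of procollagen processing, stood at 43.3, 6.64 and 40.95 FPKM, and Srgn, serglycin, a proteoglycan of leukocyte granules, at 120.6, 29.0 and 108 FPKM. Smoc2, the gene beside Thbs2 in the gene order, stood at 17.0, 1.93 and 13.6 FPKM. Tgfbi, Ltbp1, Thsd4, Pcolce2 and Aspn were at least 4-fold lower in the gated fraction than in the gland without being 4-fold apart between LCC and MG. Fndc1 and Srpx stood mainly in the gland, at 1.36, 2.59 and 70.1 FPKM and at 1.46, 2.01 and 20.7 FPKM.

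Several members share exons with a gene on the opposite strand in GENCODE M21, and where strand is not used reads of the partners cannot be told apart. Protein-coding partners were Mtx1 for Thbs3, Htra2 for Loxl3, Mapk7 for Mfap4, Mus81 for Efemp2 and Gm9913 for Fbn1. Mapk7, at 11.6 FPKM in LCC, 6.16 in the gated fraction and 12.3 in the gland, varied less than Mfap4. Htra2, at 27.8, 9.63 and 7.25 FPKM, was above Loxl3 in every library and, like Loxl3, was higher in LCC than in the gland. Mtx1, at 16.1, 10.7 and 11.7 FPKM, was above Thbs3 in LCC and in the gated fraction. The part of these partners in the levels of the members was not tested.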

How the data were processed

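Per the labels, poly-T beads captured mRNA of each of the 3 pools for TruSeq libraries read on a HiSeq instrument. For every library the authors deposited gene-level FPKM values with a status. The submitters' processing notes list TopHat 1.4.1, Cufflinks 1.3.0 and mm9 but not how each was used, and strand handling and annotation are not given in the sources used here. Of 22378 genes 78 had no value, and 22188 whose status was OK throughout were used. Where a name stood on several models the one with the highest summed FPKM was kept, which left 22077 names.

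Differences were log2((FPKM + 1)/(FPKM + 1)) for genes that reached 1 FPKM in either library of the pair, called at 2 or more in size. With 1 library per group there was no test. The steps were tested on a copy of the gland values with known folds put into 200 well-expressed genes, without noise. That checks the arithmetic and not how calls of low genes behave. Members and lists were chosen with earlier results of these data known. All 42 members are named, and from the other matrix list the genes called in any comparison at 10 FPKM or more. Alternatives were other pseudocounts, filters, scalings, status rules, gene model rules and folds. Protein sequences were not used here, so protein features were not analysed. Promoter sequences came from RefSeq (GRCm38.p6), and gene order from its gene table. Python 3.11.15, numpy 2.4.6, pandas 2.3.3 and matplotlib 3.10.9 were used.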

Additional observations from a re-analysis of the deposited data

How the results depend on the processing

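No paired analysis was possible because each group is 1 library, and no library could be left out. With a fold of 2 in place of 4, 24 genes were higher in LCC than in the gated fraction, 7 were higher and 15 lower in LCC than in the gland, and 8 were higher in the gated fraction than in the gland. With a fold of 8 these became 1 higher and 3 lower in LCC than in the gland and 1 higher in the gated fraction than in the gland, by construction. A pseudocount of 5 took the median of LCC against E-Int29-Hi to 0.97 and left 1 gene, Fmod, higher in the gated fraction than in the gland. TPM left the same 1 gene there. For LCC against MG the median went from -0.65 to -0.31 with a pseudocount of 5 and to -1.04 with TPM. The other counts stayed within 1.5 times and the other medians kept their sign and moved by less than 1.5 times under every alternative run. Of 976 single-gene values 943 kept their call, 33 did not and 0 reversed. The filter, status and gene model alternatives leave the value of a member unchanged by construction, so these counts overstate the stability. All 33 changes came from other pseudocounts and scalings, and they include calls gained as well as calls ended. In LCC against E-Int29-Hi, Nov and Wisp2 gained calls with a pseudocount of 0.1 and with TPM, and Tnxb with that pseudocount alone. In LCC against MG, Sparcl1 and Prelp gained calls with TPM. In E-Int29-Hi against MG, Thbs4, Sparcl1, Nov, Wisp2 and Fbln5 gained calls with both. TPM values are larger than FPKM values, so the pseudocount and filter of 1 weigh less there. Median ratio scaling took the median of all genes for LCC against E-Int29-Hi from 0.26 to 0.00, and TPM took those against MG to -0.41 for LCC and -0.46 for E-Int29-Hi. Under one of these scalings the small differences of Sparcl1, Fbln1, Efemp2 and Loxl3 (LCC against E-Int29-Hi), Emilin1, Thbs1, Nov, Wisp2 and Loxl2 (LCC against MG) and Vcan, Sparc, Bgn and Fbln2 (E-Int29-Hi against MG) changed sign. Depth was not set, so levels under 1 FPKM, as of Hapln1, cannot be read as absence.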

Other observations

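Beside Spp1 in the gene order lie the bone and tooth matrix genes Mepe and Ibsp, both listed at 0 in all 3 libraries, and Dmp1, at 0.214 FPKM in LCC, 0.0664 in the gated fraction and 0.232 in the gland. Spp1, their relative in the same family, was the only one of the 4 above 1 FPKM. Cspg4, a transmembrane chondroitin sulphate proteoglycan counted here among the pericyte markers, stood at 28.8 FPKM in LCC, 1.10 in the gated fraction and 2.52 in the gland, an order like that of Tnc. The other pericyte markers did not share it, with Rgs5 at 6.49, 10.6 and 47.8 FPKM and Pdgfrb at 25.5, 3.84 and 36.9 FPKM. Inmt, an enzyme counted among the lung mesenchyme markers, stood at 11.9, 0.567 and 3.45 FPKM, above both others in LCC, while Tcf21, a transcription factor of the same list, stood at 1.41, 0.0181 and 1.81 FPKM. These genes were singled out after their values were seen.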
